A study of Mus musculus with 9 samples.

Results

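The 37 genes described here encode the proteins of the centromere and the kinetochore, and all 37 were found, by gene name, among the 15184 genes of the deposited expression table. They were taken by a list of names, a rule that uses no measured value, and were divided by complex membership into 17 genes of the constitutive centromere, 3 CENP-A loading factors, 15 genes of the outer kinetochore and 2 shugoshins. The list and its classes were, however, chosen with earlier results of these data known. RNA was measured by polyA-selected, directional RNA-seq in 9 libraries of mouse embryonic fibroblasts (MEFs) from wild-type embryos. Of the libraries, 6, named SAM1 (n = 3) and SAM2 (n = 3), came from MEFs with the genotype Hnrnpk_SAM, transduced with lentiviral particles of lentiMPHv2 and lentiSAMv2. The second plasmid carries a guide RNA that directs a transcriptional activator to the promoter of the cells' own Hnrnpk gene, which encodes an RNA-binding protein. The other 3 libraries, Empty vector, came from MEFs transduced with the same system and, by the study's methods, a nontargeting guide. All cells were therefore transduced and selected with blasticidin and hygromycin. The study's methods print the same sequence for the nontargeting guide and for an Hnrnpk guide, so which guide the control carried is not settled here. The labels do not say which guide SAM1 or SAM2 carries, nor whether the 3 libraries of a group came from separate cultures, so the p-values measure the spread between these libraries, which may be technical.

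A centromere is the stretch of chromatin on which a chromosome's spindle attachment is built. It is marked by nucleosomes that hold the histone H3 variant CENP-A, to which a set of proteins called the constitutive centromere-associated network stays bound through the cell cycle. In mitosis this network recruits the outer kinetochore, whose KNL1, MIS12 and NDC80 complexes bind spindle microtubules, while shugoshins protect the cohesin that holds sister chromatids together. Many outer kinetochore genes are transcribed mainly in G2 and mitosis, so that their RNA in a culture also depends on how many cells are in these phases. In bulk RNA a larger share of such cells and more RNA per cell cannot be told apart.

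Values are counts divided by a size factor for each library (normalized counts), and changes are differences of log2(normalized count + 1), which understate the change of low genes. A gene was called when its Benjamini-Hochberg adjusted p over all 15184 genes was below 0.05 in limma, and every adjusted p given for a gene is limma's unless another test is named. The 8 libraries whose reads could be recovered from the values held 41759636 to 49026626 reads on the listed genes. Within groups, the median SD of the 37 genes on the log2 scale was 0.0769 in empty vector, 0.0566 in SAM1 and 0.0392 in SAM2. All 12 fibroblast markers on a fixed list were present, at summed levels of 1160290 to 1260520 normalized counts in empty vector, 927155 to 984856 in SAM1 and 1269170 to 1310000 in SAM2. Of these markers, Dcn (log2 change -2.17), Pdgfra (-0.71) and Thy1 (-0.48) fell and Pdgfrb (0.74) rose in both lines together. By line, 3 were called higher and 9 lower in SAM1, beside 37.3% and 36.9% of all genes. In SAM2, 3 were called higher and 5 lower, beside 35.2% and 35.3% of all genes. Their changes ranged from -2.12 to 1.30 in SAM1 and from -2.22 to 0.54 in SAM2. Of the markers of other cells, 3 epithelial genes summed to 388 to 429 normalized counts in empty vector, 3733 to 3884 in SAM1 (mostly Cldn4) and 243 to 275 in SAM2. Other markers on these fixed lists, Epcam, Krt18, Krt5, Ptprc, Sox2, Sox10, Myod1 and Myog, were not among the genes of the deposited expression table. The 5 blood and endothelial markers present summed to 664 to 936. The 2 neural and muscle markers present, Tubb3 and Des, summed to 293 to 360 in empty vector and 785 to 936 in the lines. The part of the cells that these markers stand for in the results below was not tested.

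Hnrnpk itself, the gene targeted for activation, had 25058, 26098 and 26164 normalized counts with empty vector, 24102, 24044 and 23619 in SAM1 and 26608, 26859 and 26221 in SAM2. The SAM1 libraries lay below and the SAM2 libraries above all empty vector libraries, at -0.11 ± 0.027 (SE; limma adjusted p = 0.00252) and 0.044 ± 0.027 (adjusted p = 0.159) on the log2 scale. In both lines together the change was -0.032 ± 0.054 (limma adjusted p = 0.642). The RNA level of the target thus went against the label in SAM1 and did not pass the test in SAM2, and below SAM1 and SAM2 stand for the libraries labelled so. Quantile normalization turned the direction in both lines together (0.16) and in SAM1 (0.094), and in SAM2 gave 0.22, which was then called. The study itself reports higher Hnrnpk RNA by qRT-PCR and higher HNRNPK protein by Western blot in Hnrnpk_SAM MEFs. Neither was measured in these libraries.

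The first question was which centromere and kinetochore genes differed in the libraries labelled Hnrnpk_SAM from empty vector. Of the 37 genes, 33 rose in both lines combined and 0 fell, beside 26.8% of all genes called higher and 27.0% called lower (53.9% in all) in the same comparison. Their median log2 change was 0.87, against 0.0087 for all genes. All 15 outer kinetochore genes rose (median 1.14, range 0.43 to 1.79), and 13 of the 17 constitutive centromere genes did (median 0.80, range -0.16 to 1.20). The 3 CENP-A loading factors rose (median 0.28, range 0.20 to 1.37; Mis18a was at -0.0096 relative to Actb and Gapdh), as did both shugoshins (0.85 and 1.22). The 4 genes that did not pass the test, Cenpb, Cenpc1, Cenps and Cenpt, all encode constitutive centromere proteins. When the mean of the lines was tested against the spread within lines, 3 of these 4 were called, Cenpb lower (-0.16, limma adjusted p = 8.66e-05) and Cenps and Cenpt higher (limma adjusted p = 0.0169 and 0.00532). Relative to Actb and Gapdh the median of all genes moved to -0.21, with 27 of the 37 genes called higher and 1 lower, beside 13.1% and 28.5% of all genes on that scale. Against empty vector Gapdh was itself called higher in both lines combined (0.56, limma adjusted p = 0.00094), by 0.71 in SAM1 and 0.40 in SAM2. Actb was at 0.10 in SAM1 and -0.36 in SAM2, both called. Values on this scale therefore carry the changes of these reference genes. The median of the 37 genes less that of all genes was 0.86 on either scale. This holds by construction, since the scale subtracts the same amount from every gene of a library, and tests nothing.

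**Figure D1:**
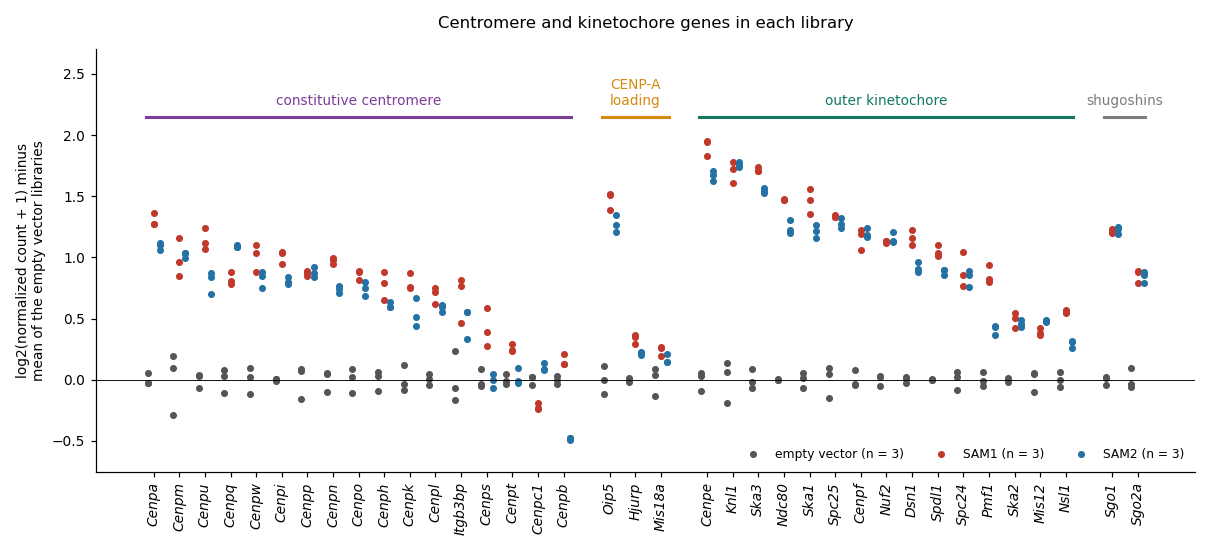
Difference of log2(normalized count + 1) from the mean of the 3 empty vector libraries (vertical axis) for each of the 37 genes, 1 point per library (grey, empty vector; red, SAM1; blue, SAM2), ordered within each class by change. The points of both lines lie above all empty vector points for 33 genes, and Cenpb, Cenpc1, Cenps and Cenpt are the exceptions.

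The groups did not overlap for the same 33 genes, with all 6 libraries of the lines above all 3 empty vector libraries, which held for 25.9% of all genes. A rise of more than 1 on the log2 scale was seen for 13 of the 37 genes, against 8.93% of all genes. These 13 comprised 9 of the 15 outer kinetochore genes (Ndc80, Nuf2, Spc25, Dsn1, Knl1, Ska1, Ska3, Cenpe and Cenpf) but 2 of the 17 constitutive centromere genes (Cenpa and Cenpm), beside Oip5 and Sgo1. The 2 classes were not set against each other in a test, since the genes of a class are not replicates.

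Outer kinetochore genes gave the 3 largest changes of the 37. Cenpe encodes a kinesin motor that carries chromosomes towards the spindle equator. It had 1266, 1164 and 1286 normalized counts with empty vector, 4753, 4398 and 4780.3 in SAM1 and 3951, 3824 and 4045 in SAM2. Every library of the lines lay well above empty vector, SAM1 highest, and the log2 change in both lines was 1.79 ± 0.081 (SE; limma adjusted p = 1.96e-07). Knl1, the scaffold on which the spindle checkpoint kinases assemble, had 581, 463 and 553 normalized counts with empty vector, 1752, 1615 and 1826 in SAM1 and 1770.3, 1790.5 and 1818 in SAM2. SAM1 and SAM2 overlapped each other, both far above empty vector, with a log2 change of 1.73 ± 0.074 (limma adjusted p = 1.4e-07).

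The Ska complex couples kinetochores to the ends of microtubules as these shorten. Its subunit Ska3, whose exons overlap those of Sap18 and Mrpl57 on the opposite strand, had 399, 414 and 445 normalized counts with empty vector, 1368, 1397 and 1373 in SAM1 and 1245, 1221 and 1205 in SAM2. All 6 libraries of the lines were above empty vector, and the log2 change was 1.63 ± 0.067 (limma adjusted p = 1.14e-07). Ska1, the microtubule-binding subunit, was lower in level, with 134, 138 and 126 normalized counts with empty vector, 369, 393 and 341 in SAM1 and 309.6, 298 and 319 in SAM2, and it too did not overlap between lines and empty vector. Ska2, the smallest subunit, differed least of the 3, with a log2 change of 0.48 ± 0.041 (limma adjusted p = 1.03e-05), and passed the test in both lines.

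The 4 subunits of the NDC80 complex, the main microtubule receptor of the kinetochore, rose with a median log2 change of 1.22. Spc25 had 572, 678 and 655 normalized counts with empty vector, 1616, 1591 and 1596 in SAM1 and 1534, 1496 and 1581 in SAM2. Nuf2, which pairs with Ndc80 at the microtubule end of the complex, had 837, 797 and 840.0 normalized counts with empty vector, 1815, 1785 and 1813 in SAM1 and 1901, 1797 and 1809 in SAM2. In both genes SAM1 and SAM2 lay close together, with the empty vector libraries apart. The log2 changes were 1.31 ± 0.058 for Spc25 (limma adjusted p = 1.9e-07) and 1.14 ± 0.039 for Nuf2 (limma adjusted p = 3.82e-08). Ndc80 had 800.0, 805 and 803 normalized counts with empty vector, 2223, 2233 and 2218 in SAM1 and 1985, 1848 and 1871 in SAM2. Its empty vector libraries differed by less than 5 normalized counts, and SAM1 was above SAM2. Spc24, the partner of Spc25, had the smallest change of the 4, 0.86 ± 0.072 (limma adjusted p = 8.94e-06).

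Per kilobase of the Ensembl canonical transcript, the mean levels of the 4 subunits in empty vector were 463 normalized counts for Spc25, 363 for Ndc80, 324 for Nuf2 and 297 for Spc24, a ratio of 1.56 between the highest and the lowest. The same ratio was 2.12 in SAM1 and 2.11 in SAM2. Per kilobase of all merged exons, Spc24 was the highest and Spc25 the lowest in empty vector (148 and 90.3), and the ratio was 1.64 in empty vector, 1.42 in SAM1 and 1.26 in SAM2. Both the order and the trend of the ratio thus depend on the length used, and neither is drawn.

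The 4 subunits of the MIS12 complex, which links the inner kinetochore to KNL1 and NDC80, rose less, with a median of 0.53. Dsn1, whose phosphorylation opens the complex to the centromere and whose exons overlap the pseudogene Gm14276 on the same strand, had 707, 682 and 699.8 normalized counts with empty vector, 1554, 1495 and 1632 in SAM1 and 1359, 1306 and 1284 in SAM2. Pmf1, the mouse counterpart of Nnf1, had 1006, 1058 and 979 normalized counts with empty vector, 1791, 1947 and 1769 in SAM1 and 1377, 1306 and 1370.5 in SAM2. For Nsl1 the values were 379, 393 and 412 in empty vector, 579.9, 576 and 585 in SAM1 and 493, 488 and 471 in SAM2. All 3 genes followed the same order of groups, with SAM1 above SAM2 and SAM2 above empty vector. Their log2 changes in both lines were 1.04, 0.63 and 0.43, and that of Mis12 itself was 0.44.

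Of the other outer kinetochore genes, Cenpf encodes a large coiled-coil protein of the kinetochore corona. It had 898, 829 and 822 normalized counts with empty vector, 1986, 1776 and 1945 in SAM1 and 1934, 1909 and 2007 in SAM2, with the lines overlapping each other and a log2 change of 1.18 ± 0.051 (limma adjusted p = 1.55e-07). Spdl1 encodes Spindly, an adaptor that brings dynein to the kinetochore, and had 862, 869 and 867 normalized counts with empty vector, 1776, 1856 and 1742 in SAM1 and 1610.1, 1609.7 and 1564 in SAM2. Its lines were both above empty vector and did not overlap each other.

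**Figure D2:**
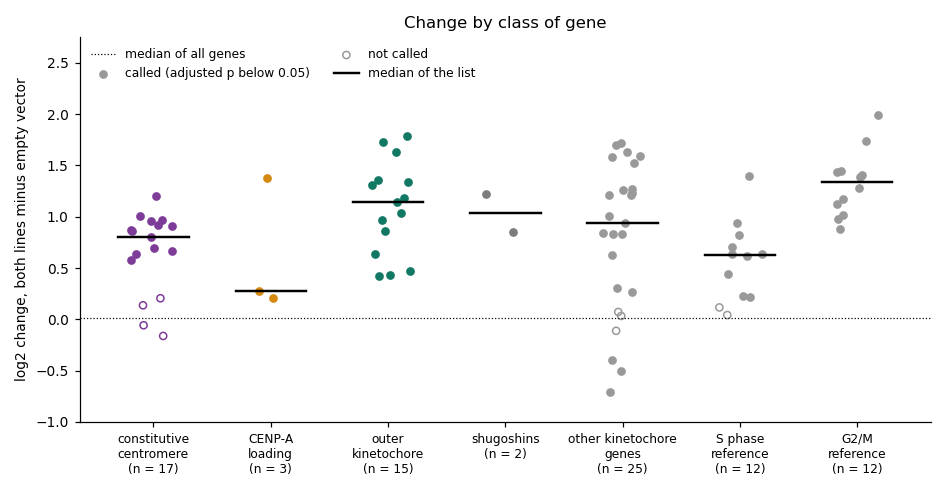
Log2 change in both lines against empty vector (vertical axis) for the genes of each class and, in grey, for other kinetochore genes and the S phase and G2/M reference genes; filled points passed the test, open points did not, and the bars are medians. The medians were 0.80 for the constitutive centromere, 1.14 for the outer kinetochore and 1.34 for the G2/M reference genes, against 0.0087 for all genes (dotted line).

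Among constitutive centromere genes the histone variant itself changed most. Cenpa had 1419, 1500.0 and 1419 normalized counts with empty vector, 3490.0, 3713 and 3505 in SAM1 and 3141, 3101 and 3014 in SAM2. SAM1 was above SAM2 and SAM2 above empty vector, with a log2 change of 1.20 ± 0.07 in both lines (SE; limma adjusted p = 9.86e-07). The module of CENP-H, -I, -K and -M, which forms the core of the network, rose as a whole with a median of 0.80. Cenpi had 1079, 1069 and 1078 normalized counts with empty vector, 2222, 2069 and 2205 in SAM1 and 1929, 1849 and 1874 in SAM2, a log2 change of 0.91 ± 0.068 (limma adjusted p = 4.51e-06). Cenph had 719, 784 and 801 normalized counts with empty vector, 1206, 1414 and 1328 in SAM1 and 1160.1, 1192 and 1162 in SAM2. For Cenpk the counts were 324, 335 and 375 with empty vector, 584, 630.0 and 580.1 in SAM1 and 549, 491 and 468 in SAM2. In all 3 genes the lines lay above empty vector, and SAM1 lay above SAM2. Cenpm was the gene with the widest spread in empty vector (SD 0.26 on the log2 scale) and rose by 1.01 ± 0.11 (limma adjusted p = 5.05e-05).

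CENP-N reads the CENP-A nucleosome directly and pairs with CENP-L. Cenpn had 573, 634 and 640.2 normalized counts with empty vector, 1230.1, 1217 and 1184 in SAM1 and 1029, 1047 and 1009 in SAM2, and the change of Cenpl was 0.64 ± 0.062 (limma adjusted p = 2.19e-05). The 5 genes of the CENP-O, -P, -Q, -U and -R module, which brings the kinase PLK1 to the centromere, all rose (median 0.87). Cenpp, whose exons overlap those of Ippk, Aspn and Ogn on the opposite strand, had 159.6, 189 and 187 normalized counts with empty vector, 321, 329.8 and 326 in SAM1 and 327, 319.9 and 338 in SAM2. Cenpo had 356, 312 and 340.0 normalized counts with empty vector, 619.8, 589.5 and 623 in SAM1 and 565, 539 and 584 in SAM2. Both lines lay above empty vector, overlapping each other in Cenpp but not in Cenpo, with log2 changes of 0.87 ± 0.072 (limma adjusted p = 8.28e-06) and 0.80 ± 0.068 (limma adjusted p = 1.01e-05). Cenpu, the subunit that binds PLK1, had 275, 255 and 273 normalized counts with empty vector, 562, 634 and 583 in SAM1 and 491, 437 and 479 in SAM2. Cenpq had 768, 877 and 846 normalized counts with empty vector, 1425, 1529 and 1453 in SAM1 and 1784, 1755 and 1756 in SAM2, and was 1 of the 2 genes of the 37 called higher in SAM2 than in SAM1. Itgb3bp, which encodes CENP-R, was the lowest of the 37 per kilobase in empty vector by either length and rose by 0.58 ± 0.13 (limma adjusted p = 0.00482).

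The CENP-T, -W and -S genes encode histone-fold proteins that form a second route from centromeric DNA to NDC80, and here the 3 genes parted. Cenpw rose, with 347, 383 and 402 normalized counts with empty vector, 772, 809 and 694 in SAM1 and 695, 679 and 635 in SAM2, a log2 change of 0.92 ± 0.086 (limma adjusted p = 1.83e-05). Cenpt had 1071, 1135 and 1090.0 normalized counts with empty vector, 1302, 1294 and 1342 in SAM1 and 1089.9, 1171 and 1076 in SAM2. Cenps had 299, 327 and 296 normalized counts with empty vector, 403, 462 and 371 in SAM1 and 306, 316 and 293 in SAM2. For both, the SAM2 libraries overlapped empty vector while the SAM1 libraries were above it, although relative to Actb and Gapdh Cenpt in SAM1 was lower (-0.15) and Cenps near empty vector (0.012). In both lines together the changes were 0.14 ± 0.08 (limma adjusted p = 0.179) for Cenpt and 0.21 ± 0.14 (limma adjusted p = 0.258) for Cenps. Cenpx, which encodes the partner of CENP-S and is not among the 37, had 613, 628 and 649.5 normalized counts with empty vector, 690.0, 819 and 672 in SAM1 and 433, 487 and 489.9 in SAM2, above empty vector in SAM1 and below it in SAM2.

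The other 2 genes that did not pass the test moved in opposite directions in the lines, a pattern of 5.83% of all genes. Cenpb (ENSMUSG00000068267.6; GRCm39 chr2:131017102-131021987, minus strand) encodes the protein that binds the CENP-B box of satellite DNA, and its exons overlap those of Spef1 on the same strand. It had 11583, 11841 and 11315 normalized counts with empty vector, 12686, 13432 and 12635 in SAM1 and 8238, 8316 and 8324 in SAM2. All SAM1 libraries were above and all SAM2 libraries below empty vector, at log2 changes of 0.16 ± 0.03 (limma adjusted p = 0.000381) and -0.48 ± 0.03 (limma adjusted p = 1.07e-08), but relative to Actb and Gapdh SAM1 too was lower (-0.25), and its change less that of the neighbouring genes within 2 Mb was -0.078. Cenpc1 (ENSMUSG00000029253.14; GRCm39 chr5:86159875-86213890, minus strand) encodes CENP-C, which bridges the CENP-A nucleosome and the MIS12 complex. It had 1620.5, 1544 and 1620.3 normalized counts with empty vector, 1400.0, 1352 and 1357 in SAM1 and 1756, 1688 and 1698 in SAM2, the reverse order of groups. Cenpc1 fell in SAM1, with a log2 change of -0.22 ± 0.037 (limma adjusted p = 0.000121), and rose in SAM2 by 0.10 ± 0.037 (limma adjusted p = 0.0227). The rise in SAM2 was not called without Empty vector replicate 2 (0.081, adjusted p = 0.081), without SAM2 replicate 1 (0.086, adjusted p = 0.0963), after quantile normalization (0.056, adjusted p = 0.182), relative to Actb and Gapdh (0.083, adjusted p = 0.113), or by edgeR (adjusted p = 0.0918) or DESeq2 (adjusted p = 0.183) on recovered reads.

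**Figure D3:**
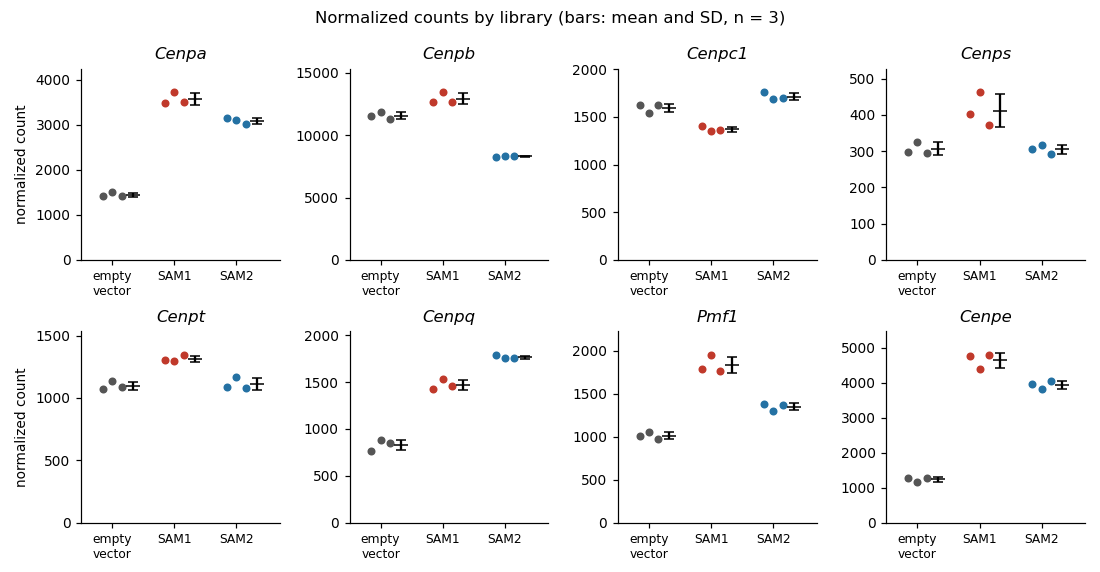
Normalized counts (vertical axes, from 0) of 8 genes in each library, with the mean and SD of each group (n = 3). Cenpb is lowest in SAM2, Cenpc1 is lowest in SAM1, Cenps and Cenpt overlap between SAM2 and empty vector, and Cenpa, Cenpq, Pmf1 and Cenpe are above empty vector in both lines.

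Per kilobase, Cenpb was the highest of the 37 genes in empty vector, at 2370 normalized counts per kb (its canonical transcript and merged exons have the same length). Per kilobase of the canonical transcript, Cenpa had 986 ± 31.8 (SD, n = 3) in empty vector, 2435 ± 85.0 in SAM1 and 2104 ± 44.4 in SAM2. On this length Cenpb remained above Cenpa in SAM1 (2644) and was below it in SAM2 (1697). Per kilobase of merged exons, Cenpa was at 108 in empty vector, so this comparison too rests on the length.

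CENP-A is placed in chromatin after mitosis by its own chaperone and the Mis18 complex. Hjurp, the chaperone, had 6074, 5923 and 6033 normalized counts with empty vector, 7670.1, 7368 and 7759 in SAM1 and 7023, 6921 and 6995 in SAM2. Mis18a had 789, 919 and 886 normalized counts with empty vector, 989, 1039.8 and 1030.3 in SAM1 and 1001, 954 and 954 in SAM2. Both rose by little, with log2 changes of 0.28 ± 0.046 (SE; limma adjusted p = 0.000741) and 0.20 ± 0.059 (limma adjusted p = 0.0152), but relative to Actb and Gapdh Hjurp was at 0.063 (adjusted p = 0.644) and Mis18a at -0.0096, and the call of Mis18a was also lost without Empty vector replicate 1 (0.14, adjusted p = 0.0724). Oip5, which encodes Mis18 beta, had 219, 256 and 237 normalized counts with empty vector, 622, 681 and 676 in SAM1 and 604, 548 and 572 in SAM2, a log2 change of 1.37 ± 0.088 (limma adjusted p = 1.65e-06). Its exons overlap those of Nusap1 on the opposite strand, a G2/M reference gene whose change was 1.74. The sources used here do not give the strand setting of the counting.

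Sgo1, which guards centromeric cohesin, had 874, 840.3 and 877 normalized counts with empty vector, 1985, 2034 and 1993 in SAM1 and 2051, 1974 and 2026 in SAM2. Sgo2a, its relative with the same role chiefly in meiosis, had 781, 792 and 868 normalized counts with empty vector, 1505, 1403 and 1501 in SAM1 and 1496, 1408 and 1473 in SAM2. In both genes SAM1 and SAM2 overlapped, far from empty vector, and Sgo1 had the smallest of the 37 limma adjusted p-values (1.69e-08, log2 change 1.22 ± 0.036), while Sgo2a rose by 0.85 ± 0.05 (limma adjusted p = 9.52e-07).

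By line, 36 of the 37 genes rose in SAM1 and 1, Cenpc1, fell, where 37.3% and 36.9% of all genes were called higher and lower (74.3% in all). Relative to Actb and Gapdh, where the median of all genes in SAM1 was -0.40, 28 were called higher and 4 lower, beside 18.1% and 63.1% of all genes. In SAM2, 34 rose and 1, Cenpb, fell, beside 35.2% and 35.3% of all genes (70.5% in all), and Cenps and Cenpt were not called (limma adjusted p = 0.931 and 0.744). Both lines are compared with the same 3 empty vector libraries, so these are not independent counts. The median change of the constitutive centromere was 0.82 in SAM1 and 0.74 in SAM2, and that of the outer kinetochore was 1.16 and 1.15.

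The test of the difference between the lines called 22 of the 37 genes, 20 lower and 2 higher in SAM2, beside 29.2% and 31.1% of all genes (60.3% in all), whereas relative to Actb and Gapdh 1 was lower and 29 higher, beside 9.61% and 68.0% of all genes. The differences were small, with Cenpb the only gene of the 22 above 0.5 on the log2 scale (-0.64, 95% interval -0.70 to -0.57). Pmf1 and Cenps followed, at -0.44 (-0.54 to -0.34) and -0.43 (-0.60 to -0.25). Cenpc1 and Cenpq were higher in SAM2, by 0.32 (0.24 to 0.40) and 0.27 (0.16 to 0.37). Among the 15 genes not called, Knl1 had a difference of 0.052 with an interval of -0.10 to 0.21, and Nuf2 one of 0.025 with an interval of -0.059 to 0.11. Actb and Gapdh themselves differed between the lines by -0.46 and -0.31 (limma adjusted p = 2.46e-07 and 1.74e-05), and relative to them the median of all genes moved to 0.38 for SAM2 minus SAM1.

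**Figure D4:**
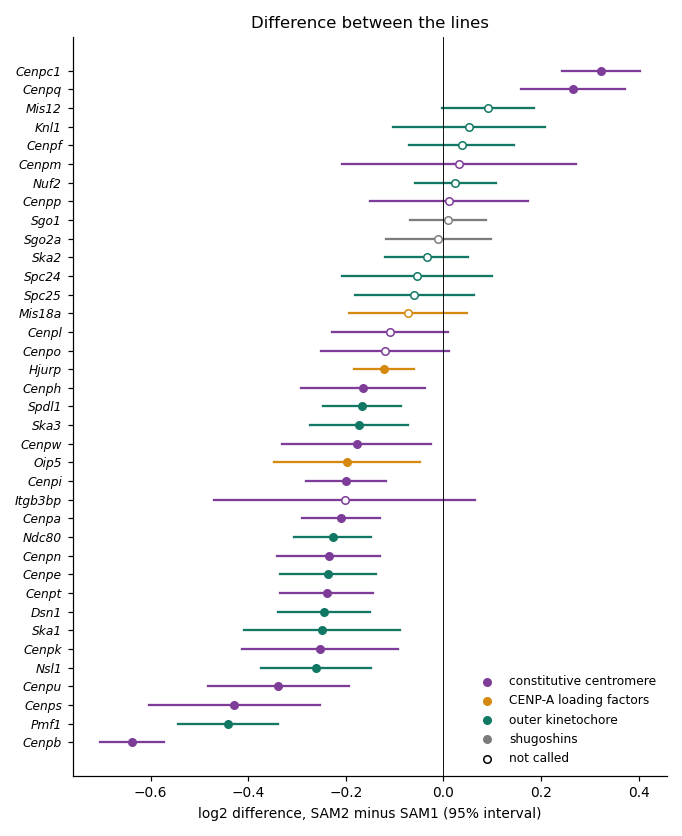
Difference between SAM2 and SAM1 on the log2 scale (horizontal axis) with its 95% interval for each of the 37 genes, coloured by class; filled points were called. Cenpb at -0.64 and Cenpc1 at 0.32 are the extremes, and 20 of the 22 called genes lie to the left of 0, while relative to Actb and Gapdh, where the median of all genes was 0.38, 29 of the 37 were called higher in SAM2.

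Genes that work beside the 37 were described by a fixed list of 25, of which 19 rose and 3 fell in both lines (median 0.93). Knstrn, Aurkb and Bub1 had the largest rises. Knstrn, which encodes a spindle and kinetochore protein needed for chromatid separation, changed by 1.72 ± 0.11 (SE; limma adjusted p = 2.06e-06). Aurkb, the kinase of the chromosomal passenger complex that releases faulty attachments, changed by 1.70 ± 0.095 (limma adjusted p = 6.93e-07), and the checkpoint kinase gene Bub1 by 1.64 ± 0.10 (limma adjusted p = 1.63e-06). Cenpv, Mad1l1 and Bub3 were the 3 that fell. The changes were -0.71 ± 0.16 (limma adjusted p = 0.00364) for Cenpv, which helps to place the chromosomal passenger complex, and -0.50 ± 0.056 (limma adjusted p = 6e-05) and -0.40 ± 0.064 (limma adjusted p = 0.000618) for the checkpoint genes Mad1l1 and Bub3.

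Reference genes of the cell cycle moved with the 37. Of the 12 S phase genes, 10 rose (median 0.63), among them Tyms, thymidylate synthase, by 0.62 ± 0.038 (limma adjusted p = 1.29e-06) and the replicative helicase subunit gene Mcm7 by 0.44 ± 0.033 (limma adjusted p = 4.28e-06). All 12 G2/M genes rose (median 1.34), among them Ccnf, which encodes cyclin F, by 1.99 ± 0.044 (limma adjusted p = 5.56e-09) and Nusap1, a spindle gene, by 1.74 ± 0.041 (limma adjusted p = 6.17e-09). The summed level of the G2/M genes was 27049 to 27298 normalized counts in empty vector, 60827 to 61614 in SAM1 and 60039 to 60782 in SAM2. The summed level of the 15 outer kinetochore genes over the same libraries was 11288 to 11385, 25380 to 25789 and 23158 to 23745. In Hnrnpk_SAM MEFs the study reports more cells in G2/M by flow cytometry, which it reads as cell cycle arrest, and more senescent cells by staining. Neither was measured in these libraries. The part of a changed share of cells in cycle or in G2/M in the results was not tested.

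Some of the 37 lie in regions where neighbouring genes changed as well. The median change of the other listed genes within 2 Mb ranged from -0.55 to 0.59, and 36 of the 37 genes lay above their own neighbours' median. The share of all genes that lie above their neighbours was not worked out. Some sets of neighbours were small, with 3 genes for Sgo1 and 4 for Cenpc1. Ska3 (ENSMUSG00000021965.5; GRCm39 chr14:58041134-58063978, minus strand) is on chromosome 14, where the median of 512 genes was 0.55 and that of its 37 neighbours 0.59. The change of Ska3 less its neighbours was 1.05, against 1.63 as measured. For Knl1 (ENSMUSG00000027326.15; GRCm39 chr2:118877598-118935982, plus strand) the neighbours' median was 0.37 and the remainder 1.36. For Mis12 the neighbours changed by 0.34, which leaves 0.094. Cenpf and Sgo2a, on chromosome 1, were the opposite case, with neighbours at -0.49 and -0.55.

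**Figure D5:**
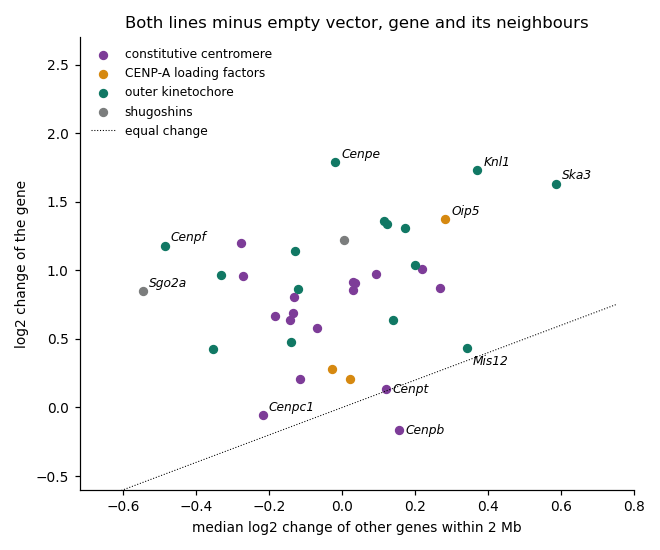
Log2 change of each of the 37 genes in both lines (vertical axis) against the median log2 change of the other listed genes within 2 Mb (horizontal axis), coloured by class. Cenpb alone lies below the dotted line of equal change, Cenpt and Mis12 lie close to it, and Ska3 has the neighbours with the highest median, 0.59.

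Promoter sequences were read for the 34 of the 37 genes that RefSeq's promoter table (GRCm38.p6) holds, from 250 bases before to 50 bases after the transcription start; Spc24, Ska1 and Nsl1 had no entry. The CHR (cell cycle genes homology region; TTTGAA or TTCGAA on either strand) and the CCAAT box are elements known from promoters of genes transcribed in G2 and mitosis. At least 1 CHR match was found in 16 of the 34 genes (47.1%) and in 21.7% of the 27025 genes of the table. A CCAAT match was found in 22 of the 34 (64.7%, against 41.1%), and both together in 12 (35.3%, against 8.61%). A CHR match was present in 7 of 12 outer kinetochore genes, 5 of 17 constitutive centromere genes, all 3 loading factors, 1 of the 2 shugoshins and 8 of the 10 G2/M reference genes in the table. E2F matches (TTTCGCGC, TTTGGCGC, TTTCCCGC or TTTGCCGC on either strand) were found in 6 genes (17.6%, against 2.60%), 4 of them constitutive centromere genes and Cenpb and Cenps among those. Of the 10 S phase reference genes with an entry, 3 had a CHR match, 9 a CCAAT match and 4 an E2F match. A CCAAT match was thus as frequent there as in the G2/M reference genes (9 of 10). The 27025 genes of the comparison were not limited to expressed genes.

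The stretches from 90 bases before to 30 bases after the start are printed below for the 9 members with a whole CHR match within them, all of which rose, first 4 of the outer kinetochore, then 4 of the constitutive centromere and the loading factor Hjurp, in GRCm38.p6 coordinates and on the strand of the gene. They are chr2:69206184-69206303 on the minus strand for Spc25, chr1:189688057-189688176 on the minus strand for Cenpf, chr11:34833612-34833731 on the minus strand for Spdl1, chr14:57826134-57826253 on the minus strand for Ska3, chr5:30666796-30666915 on the plus strand for Cenpa, chr15:82244307-82244426 on the minus strand for Cenpm, chr8:116921650-116921769 on the plus strand for Cenpn, chr10:30200511-30200630 on the minus strand for Cenpw and chr1:88277550-88277669 on the minus strand for Hjurp. Capitals mark CHR (TTTGAA or TTCGAA, or TTCAAA where it is on the other strand) and CCAAT (or ATTGG) matches and, in Cenpm, an E2F match (TTTCCCGC); in Cenpw the CCAAT and CHR matches share a base.
Spc25: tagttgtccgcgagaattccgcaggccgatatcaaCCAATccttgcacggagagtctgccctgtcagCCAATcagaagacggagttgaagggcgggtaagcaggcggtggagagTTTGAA
Cenpf: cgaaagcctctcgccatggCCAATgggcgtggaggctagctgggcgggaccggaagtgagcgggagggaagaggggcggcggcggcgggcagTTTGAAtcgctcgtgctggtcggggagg
Spdl1: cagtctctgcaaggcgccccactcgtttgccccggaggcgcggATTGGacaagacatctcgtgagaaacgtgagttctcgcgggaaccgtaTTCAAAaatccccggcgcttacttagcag
Ska3: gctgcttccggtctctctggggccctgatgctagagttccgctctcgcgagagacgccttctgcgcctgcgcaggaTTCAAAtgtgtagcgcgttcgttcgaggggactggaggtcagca
Cenpa: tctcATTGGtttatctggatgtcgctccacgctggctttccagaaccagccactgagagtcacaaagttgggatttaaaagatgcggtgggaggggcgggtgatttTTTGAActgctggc
Cenpm: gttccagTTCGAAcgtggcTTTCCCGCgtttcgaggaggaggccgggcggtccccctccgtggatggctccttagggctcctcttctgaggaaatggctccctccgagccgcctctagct
Cenpn: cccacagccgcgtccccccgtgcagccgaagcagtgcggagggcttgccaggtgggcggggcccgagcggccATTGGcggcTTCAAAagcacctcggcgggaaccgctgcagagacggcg
Cenpw: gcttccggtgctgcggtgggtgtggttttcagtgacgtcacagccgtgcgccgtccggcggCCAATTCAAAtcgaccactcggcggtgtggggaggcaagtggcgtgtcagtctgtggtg
Hjurp: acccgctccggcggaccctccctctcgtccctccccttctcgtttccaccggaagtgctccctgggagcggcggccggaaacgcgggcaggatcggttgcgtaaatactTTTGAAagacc

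The same stretch is shown for the 4 genes that did not pass the test in both lines (3 of them called in the test of the mean of the lines), none of which has a CHR match in its whole promoter entry, at chr2:131180038-131180157 on the minus strand for Cenpb, chr5:86065554-86065673 on the minus strand for Cenpc1, chr4:149137571-149137690 on the minus strand for Cenps and chr8:105851979-105852098 on the minus strand for Cenpt. Capitals mark the 1 CCAAT match, in Cenpc1.
Cenpb: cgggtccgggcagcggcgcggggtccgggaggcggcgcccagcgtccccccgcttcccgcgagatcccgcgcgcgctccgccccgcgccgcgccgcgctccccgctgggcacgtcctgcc
Cenpc1: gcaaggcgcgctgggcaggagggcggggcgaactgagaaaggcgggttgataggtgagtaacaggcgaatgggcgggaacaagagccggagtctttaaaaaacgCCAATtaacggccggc
Cenps: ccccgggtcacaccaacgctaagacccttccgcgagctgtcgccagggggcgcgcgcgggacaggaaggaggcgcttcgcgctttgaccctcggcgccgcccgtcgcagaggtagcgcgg
Cenpt: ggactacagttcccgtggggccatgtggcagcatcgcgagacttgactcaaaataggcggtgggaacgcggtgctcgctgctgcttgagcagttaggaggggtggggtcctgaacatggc

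In the first set the CHR match began between 83 bases before (Cenpm) and 25 bases after (Spc25) the start. The printed sets were not compared in a test, and 33 of the 37 genes rose in any case. Genes without a CHR match rose too, among them Nuf2, Dsn1, Mis12, Ska2, Cenpi and Cenpq. Cenpe, with the largest change of the 37, has a CCAAT match 12 bases before the start and no CHR match, and Cenpo and Cenpp, which both rose, have none of these motifs. A match is a run of letters and was not tested as a binding site.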

How the data were processed

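Per the labels and the study's methods, polyA+ RNA of MEFs was made into directional libraries (NEBNext Ultra II) and sequenced in pairs of 43 bases. The authors checked reads with FastQC 0.11.0, aligned them with TopHat2, Bowtie and SAMtools to GRCm39, counted them with HTSeq against GENCODE vM29, kept genes with more than 10 in at least 30% of samples, and deposited DESeq2-normalized counts, a signal with whole reads divided by a size factor. For 8 of the 9 libraries all values came out whole (tolerance 0.01 read) once multiplied by that factor. The strand setting of HTSeq is not given in the sources used here.

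The 37 genes, their classes, the motifs and the other gene lists were chosen with earlier results of these data known. Values were tested as log2(value + 1) with limma 3.58.1 (trend, R 4.3.3), both lines against empty vector (6 against 3) and in a fit of 3 groups, with Benjamini-Hochberg adjustment over 15184 genes, two-sided, threshold 0.05. As alternatives, edgeR 4.0.16 and DESeq2 1.42.0 were run on the recovered reads of 8 libraries. Other alternatives were a pseudocount of 10, the 13171 genes above 10 in every library, quantile normalization, values relative to Actb and Gapdh, a replicate block, leaving out each library, and subtracting the median of the chromosome or of genes within 2 Mb. The length of the canonical transcript was added after seeing the data.

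Every member may be named. Values in every library are given for the genes with the smallest adjusted p of each class (5 of each large class, otherwise 3), those called in opposite directions and those that differed between lines; of the other kinetochore genes the 3 largest and 3 smallest changes are given, and of each cell cycle list the 2 smallest adjusted p (Cenpx, Actb, Gapdh and the 4 fibroblast markers named were added after their values were seen). Gene positions are from GENCODE vM39 on GRCm39; promoters are from RefSeq on GRCm38.p6. The scripts were tested on simulated data.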

Additional observations from a re-analysis of the deposited data

Results flagged for a closer look

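In 22 of the 37 genes the changes of the lines against empty vector differed from each other by limma's test of the difference (adjusted p below 0.05), as 60.3% of all genes did. For SAM2 minus SAM1 on the log2 scale, the constitutive centromere genes lower in SAM2 were Cenpb (-0.64), Cenps (-0.43), Cenpu (-0.34), Cenpk (-0.25), Cenpn (-0.24), Cenpt (-0.24), Cenpa (-0.21), Cenpi (-0.20), Cenpw (-0.18) and Cenph (-0.17). Cenpc1 (0.32) and Cenpq (0.27) were higher in SAM2. The outer kinetochore genes that differed were Pmf1 (-0.44), Nsl1 (-0.26), Ska1 (-0.25), Dsn1 (-0.24), Cenpe (-0.24), Ndc80 (-0.23), Ska3 (-0.17) and Spdl1 (-0.17), and the loading factors were Oip5 (-0.20) and Hjurp (-0.12). In Cenpb and Cenpc1 the lines were called in opposite directions against empty vector, but the rise of Cenpc1 in SAM2 was not called in 6 other fits, and Cenpb in SAM1 was at -0.25 relative to Actb and Gapdh, -0.12 less the chromosome median and -0.078 less the 2 Mb median. The calls of Cenpw, Cenph and Oip5 were the least firm, with adjusted p of 0.044, 0.0269 and 0.0243.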

How the results depend on the processing

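Of the 33 genes that rose in both lines, 27 were called under all 17 other fits. Itgb3bp, Hjurp, Mis12, Nsl1 and Ska2 were not called relative to Actb and Gapdh, and Mis18a was not called there, after quantile normalization (0.15, limma adjusted p = 0.0794) or without Empty replicate 1. edgeR and DESeq2 on recovered reads each called 33 higher and 0 lower. The share of all genes called was worked out only for the main fit and for values relative to Actb and Gapdh. Counts under the other fits thus show only whether the genes kept their calls. With the replicate number as a block, 33 rose and 0 fell in both lines, and 20 were lower and 2 higher in SAM2 than in SAM1, as without it. Same-numbered libraries of different groups correlated weakly in their deviations (mean r 0.053 over 9 pairs, range 0.0024 to 0.12). The mean for the 18 pairs of unlike number (-0.027) is no separate reference, since the deviations of a group cancel out. Whether the numbers mark pairs is therefore not settled here, and the main fit does not use them. Leaving out 1 library at a time gave 32 to 33 genes higher in both lines and 16 to 20 lower in SAM2 than in SAM1. Among those 20, the calls of Cenph, Cenpk, Cenpw, Oip5 and Ska1 were lost without at least 1 library. The mean of the lines, tested against the spread within lines, called Cenps and Cenpt higher and 1 gene lower, Cenpb (-0.16, limma adjusted p = 8.66e-05).

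Relative to Actb and Gapdh, 1 gene was lower in both lines and 4 in SAM1 (28.5% and 63.1% of all genes), and 29 genes were higher and 1 lower in SAM2 than in SAM1 (68.0% and 9.61% of all genes). The class medians of the constitutive centromere were then 0.59 in both lines, 0.42 in SAM1 and 0.19 for SAM2 minus SAM1, and those of the outer kinetochore 0.93, 0.75 and 0.22. Quantile normalization gave 0.72 (both lines) and 0.64 (SAM2) for the constitutive centromere and 1.05 (SAM2) for the outer kinetochore. Less the chromosome median, the outer kinetochore was at 1.08 in both lines, 1.06 in SAM1, 0.98 in SAM2 and -0.11 for SAM2 minus SAM1. Less the median within 2 Mb, it was at 1.10 in SAM2 and -0.10 for SAM2 minus SAM1, and the constitutive centromere at -0.13 for SAM2 minus SAM1. Without Cenpe, Cenpf and Spdl1 the outer kinetochore in SAM2 was at 1.04. Quantile normalization put Hnrnpk at 0.16 in both lines, 0.094 in SAM1 and 0.22 in SAM2, the last now called.

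For single genes the sign turned as follows; the cause was not tested. In both lines, relative to Actb and Gapdh, Cenps was at -0.0085, Cenpt at -0.077 and Mis18a at -0.0096, and Cenpc1 was at 0.099 less the chromosome and 0.16 less the 2 Mb median. In SAM1, Cenpb was at -0.25 relative to Actb and Gapdh, -0.12 less the chromosome and -0.078 less the 2 Mb median, and Cenpt was at -0.15 relative to Actb and Gapdh. In SAM2, Cenps, not called, ranged from -0.035 to 0.037 when 1 library was left out and was at 0.15 less either median. Cenpt, not called either, was at -0.051 after quantile normalization, -0.0034 relative to Actb and Gapdh, -0.020 to 0.041 when 1 library was left out, and -0.00041 and -0.034 less the chromosome and 2 Mb medians. For SAM2 minus SAM1 relative to Actb and Gapdh, the values were Cenpa 0.18, Cenph 0.22, Cenpi 0.19, Cenpk 0.13, Cenpn 0.15 (0.16 less the 2 Mb median), Cenpt 0.15, Cenpu 0.048, Cenpw 0.21, Hjurp 0.26, Oip5 0.19, Ndc80 0.16, Dsn1 0.14, Nsl1 0.13, Ska1 0.14, Ska3 0.21, Cenpe 0.15 and Spdl1 0.22.

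Each group has 3 libraries, which limits the estimate of the spread; reads were recovered for 8 of the 9 libraries, at 41759636 or more each. The exons of 14 of the 37 genes overlap those of another listed gene. For the 12 on the opposite strand, shared reads cannot be told apart if counting ignored strand. For the 2 on the same strand, Cenpb and Dsn1, strand does not tell shared reads apart under either setting.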
